A study of Mus musculus with 18 samples.

Results

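The D-type cyclins and the inhibitors of their kinases were followed through mouse mammary development as a set of 7 genes of the 31053 listed in the count tables: the cyclins Ccnd1, Ccnd2 and Ccnd3, and the CDK inhibitors Cdkn1a (p21), Cdkn1b (p27), Cdkn2a (p16 and p19Arf) and Cdkn2c (p18). They were taken as a list of named genes, chosen with earlier results of these data known. D-type cyclins bind CDK4 and CDK6, and the complexes phosphorylate the retinoblastoma protein and so release E2F factors to drive cells from G1 into S phase. The INK4 proteins p16 and p18 bind CDK4 and CDK6 directly, p19Arf acts through MDM2 to stabilise p53, and p21, a target of p53, and p27 bind cyclin-CDK complexes and restrain CDK2. In the mammary gland cyclin D1 is known for its part in alveolar growth during pregnancy.

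The study profiled single cells from 18 libraries made with the 10x Genomics 3' assay, 17 of mammary epithelium and 1 of embryonic skin, and 149371 barcodes were deposited, of which 132599 passed the cell limits used here. The C57BL/6 material comprised the mammary rudiment and the adjacent skin at embryonic day 18.5 (E18.5; pooled female embryos located by an Lgr5-GFP knock-in), postnatal day 5, pre-puberty at 2.5 weeks, microdissected terminal end buds (TEB) and ducts at 5 weeks (Ecadherin-GFP reporter), and adult virgin glands at 10 weeks, with 1 library each. A SWISS adult virgin library at 10 weeks stood alone as well. The FVB/NJ material comprised 3 adult virgin libraries at 10 weeks, 2 of pregnancy day 12.5, 2 of pregnancy day 18.5, 2 of lactation day 10 and 1 post-involution library, given as 3 weeks post birth in its label and as 3 weeks post-weaning in the text of the study. All cells were sorted as Lin- (Ter119-, CD31- and CD45-) on CD24 and CD29 from pooled glands, and the estrous cycle of the virgin females was not staged. The replicate libraries of a stage are described by the study as biological replicates. E18.5 skin and mammary cells were handled at the same time, as were TEB and ducts, pre-puberty with C57BL/6 and SWISS adults, and FVB/NJ adult material, its replicates not named, with post-involution. No such sharing is stated between the virgin, pregnancy and lactation libraries, where the day of processing and the stage cannot be told apart.

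Libraries held between 9920346 and 93234616 UMIs (unique molecular identifiers, each standing for 1 captured transcript molecule), with a median of 2498 to 21609 UMIs per cell. Adult FVB/NJ replicate 2 stood apart, with the smallest total and median and with barcodes of 14 bases where the other libraries had 16. For part of the results that include it, the value without it is given as well. Epithelial cells were assigned to basal cells (46569), luminal progenitor or alveolar cells (LP/alveolar, 36345) and mature luminal cells (ML, 24804) by keratin, contractile, hormone receptor and progenitor marker UMIs, none of which is among the 7 genes. The classes were reached in all 17 mammary libraries, with at least 201 cells in each. The library labelled skin held 8920 cells with fibroblast markers out of 9025, and only 4 of its cells entered an epithelial class, so it is left out of the epithelial results. Levels are given as CPM, the UMIs of a gene per 1000000 UMIs of that class in that library, milk transcripts included unless stated, and shares are the percent of cells with at least 1 UMI after every cell was thinned to 2000 UMIs, shallower cells being left out. At least 1 barcode sequence was shared by 115 of the 153 pairs of libraries, with 239 shared barcodes at most and a median of 13. Postnatal day 5, pre-puberty, C57BL/6 and SWISS shared 2 to 39 with each other but at most 7 with any other library. FVB/NJ adult replicate 1, for example, shared 4 with C57BL/6 and 180 with pregnancy day 18.5 replicate 1. Orders of level that mix these libraries with the rest carry this split, and its part in the levels was not tested.

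The sequences most useful for reading the counts were those of the inhibitors with more than 1 start site. RefSeq promoter windows, from 250 bases before to 50 bases after a start site on GRCm38.p6, matched 5 of the 7 genes and gave 9 windows. Ccnd1 and Ccnd2 had no entry. The windows were searched on both strands for GGGCGG, a binding motif of Sp1-type factors. They were also searched on both strands for the TATA box letters TATAAA. The last search was for the p53 consensus of adjacent half-sites, which reads alike on both strands, with at most 1 mismatch in 20 bases. Of all 32851 windows of 300 bases, 35.7% held GGGCGG, 13.6% held TATAAA and 0.0883% held the p53 consensus. Cdkn2a (chr4:89274471-89294653, minus strand, GRCm38) is shown because its start sites give different proteins from shared later exons: the upstream RefSeq start (position 89294619) lies within exon 1 of p19Arf (chr4:89294334-89294653) and the downstream start (position 89282192) at the first base of exon 1 of p16 (chr4:89281986-89282192), and both transcripts share the exon chr4:89276645-89276985. A 3' count therefore joins p16 and p19Arf, and no value here separates them. Capitals mark GGGCGG, which occurs 3 times in the upstream window and 1 time in the downstream window.
Cdkn2a, p19Arf start, chr4:89294570-89294869, minus strand: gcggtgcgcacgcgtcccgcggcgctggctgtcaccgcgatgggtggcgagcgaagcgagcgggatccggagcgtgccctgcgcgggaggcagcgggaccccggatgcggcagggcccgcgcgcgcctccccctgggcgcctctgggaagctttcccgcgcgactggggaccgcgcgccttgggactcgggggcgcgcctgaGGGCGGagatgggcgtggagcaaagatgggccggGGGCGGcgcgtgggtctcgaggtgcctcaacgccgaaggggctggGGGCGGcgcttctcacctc
Cdkn2a, p16 start, chr4:89282143-89282442, minus strand: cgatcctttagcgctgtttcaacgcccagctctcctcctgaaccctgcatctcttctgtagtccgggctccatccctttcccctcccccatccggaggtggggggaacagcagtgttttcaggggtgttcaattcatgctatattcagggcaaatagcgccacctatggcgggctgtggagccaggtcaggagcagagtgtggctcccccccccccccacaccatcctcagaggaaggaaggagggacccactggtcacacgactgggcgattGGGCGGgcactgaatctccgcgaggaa

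Cdkn1a (chr17:29090976-29100727, plus strand) is shown because it carried the clearest change of the pregnancy cycle. The window at its upstream start held 1 match to the p53 consensus, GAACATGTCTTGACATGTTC at chr17:29090928-29090947, with 19 of 20 bases matching, and it is the only match in the 9 windows of these genes. The window at the downstream start held GGGCGG 2 times and no p53 match. TATAAA was in none of the 9 windows. Capitals mark the p53 match in the upstream window and GGGCGG in the downstream window.
Cdkn1a, upstream start, chr17:29090729-29091028, plus strand: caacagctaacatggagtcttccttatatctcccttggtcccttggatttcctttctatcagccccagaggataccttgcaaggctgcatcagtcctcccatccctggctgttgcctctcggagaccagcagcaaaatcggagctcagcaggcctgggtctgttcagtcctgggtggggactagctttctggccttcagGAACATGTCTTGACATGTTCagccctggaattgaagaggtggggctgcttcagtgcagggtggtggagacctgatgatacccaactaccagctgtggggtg
Cdkn1a, downstream start, chr17:29093519-29093818, plus strand: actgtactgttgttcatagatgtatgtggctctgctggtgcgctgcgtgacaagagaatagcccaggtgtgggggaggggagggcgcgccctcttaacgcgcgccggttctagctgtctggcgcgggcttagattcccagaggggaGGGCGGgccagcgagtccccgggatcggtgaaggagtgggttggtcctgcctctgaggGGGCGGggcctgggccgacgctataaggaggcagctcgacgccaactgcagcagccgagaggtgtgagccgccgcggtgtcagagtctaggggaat

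Ccnd2 (cyclin D2) was high in basal cells and close to absent from adult luminal cells. In basal cells of the 5 adult libraries its level was 326, 87.5 and 266 CPM in FVB/NJ replicates 1 to 3, 215 CPM in C57BL/6 and 529 CPM in SWISS. In LP/alveolar cells of the same libraries it was 5.75, 1.46, 12.1, 2.07 and 15.0 CPM, and in ML cells 6.36, 1.28, 11.5, 3.29 and 16.6 CPM. Every basal value lay above every luminal value. In the edgeR quasi-likelihood test with library as a block, basal cells exceeded LP/alveolar cells by 42.8-fold (log2 difference 5.42 ± 0.28 SE, adjusted p = 1.91e-08, n = 5 libraries) and ML cells by 41.3-fold (5.37 ± 0.26, adjusted p = 1.48e-08), each in 5 of 5 libraries. Without FVB/NJ replicate 2 the log2 differences were 5.39 and 5.30. For comparison, the summed level of the 8 basal gate markers in LP/alveolar cells, where few of those transcripts belong, was 1.04% to 6.03% of the basal level in these libraries, and Ccnd2 stood at 0.966% to 4.53%. The Ccnd2 percentage was below that of the markers in 4 of the 5 libraries, the exception being FVB/NJ replicate 2 (1.67% against 1.12%). In ML cells the markers stood at 0.904% to 6.74% and Ccnd2 at 1.47% to 4.33%, and the Ccnd2 percentage was the higher in 3 of the 5 libraries. The markers also define the classes, and the part of carried-over transcripts in the luminal Ccnd2 level was not tested.

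By the luminal level as a percent of the basal one, the split was narrower than in any adult library at E18.5 in LP/alveolar and ML cells. At postnatal day 5 this held in LP/alveolar cells only, and before puberty and in lactation replicate 1 in ML cells only. At E18.5 Ccnd2 stood at 921 CPM in basal, 345 CPM in LP/alveolar and 378 CPM in ML cells, and at postnatal day 5 at 821, 98.3 and 32.9 CPM. At E18.5 the LP/alveolar level of Ccnd2 was 37.5% of the basal one, against 13.1% for the basal markers, and at postnatal day 5 it was 11.98% against 6.47%. The ML level before puberty was 7.52% against 0.907%, at 12.8 CPM, and in lactation replicate 1 it was 6.08% against 1.06%, at 3.76 CPM. After thinning, 77.2% of basal, 44.4% of LP/alveolar and 47.9% of ML cells had a Ccnd2 UMI at E18.5, against 58.1%, 1.70% and 2.27% in the adult SWISS library. The E18.5 classes rest on few markers, with a median of 6 basal marker UMIs in both luminal classes, 2 LP marker UMIs in LP/alveolar cells and 3 ML marker UMIs in ML cells, so the names there stand for the gates alone. The young libraries have no replicate, and 12.5% of the epithelial cells at E18.5 lay within 10 percentage points of the luminal gate limit. From pre-puberty onward, the luminal level of Ccnd2 was at most 16.6 CPM in any library.

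**Figure D1:**
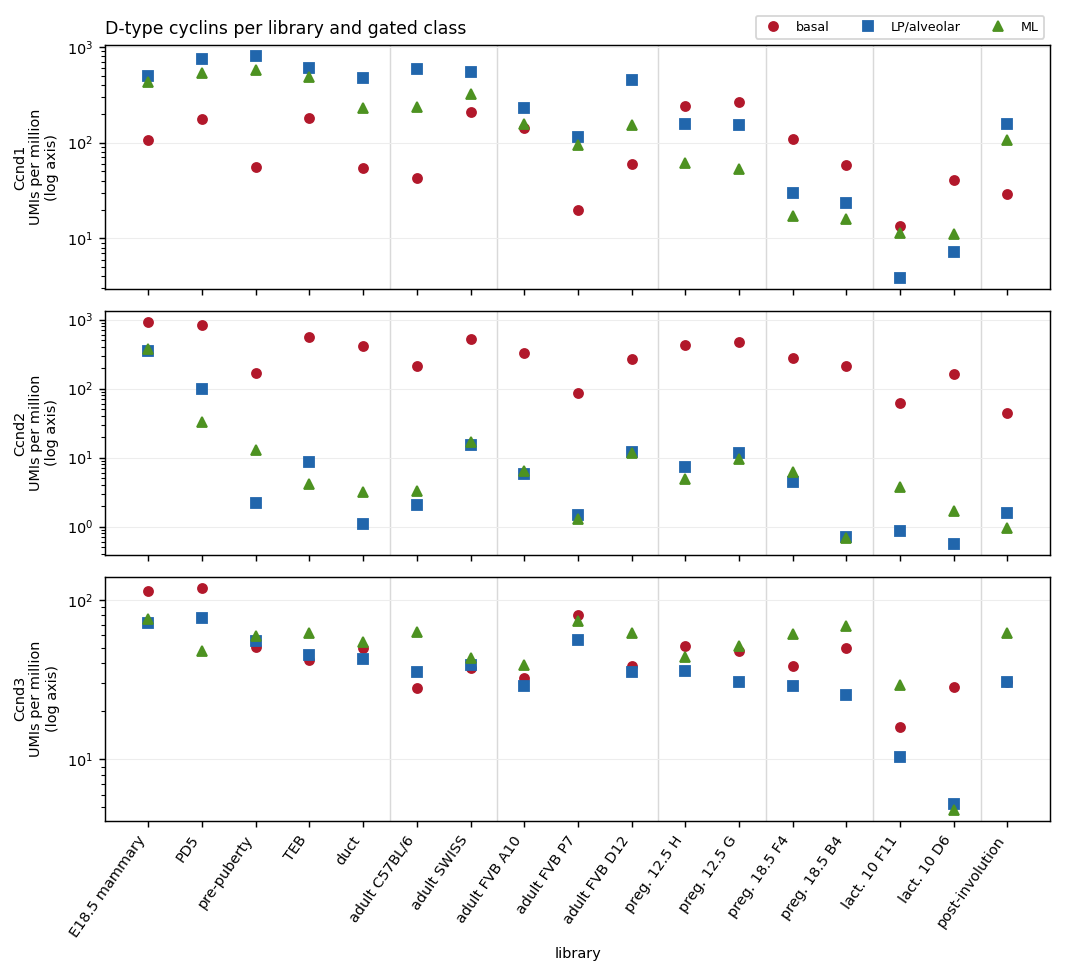
Ccnd1, Ccnd2 and Ccnd3 in CPM (log axis) for basal, LP/alveolar and ML cells of each of the 17 mammary libraries, in order of development. Points are single libraries without error bars, and replicates of a stage stand in the order of their numbers. Ccnd2 falls below 17 CPM in luminal cells from pre-puberty onward, and LP/alveolar Ccnd1 is lowest at lactation, at 3.87 and 7.12 CPM with milk transcripts in the total.

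Ccnd1 (cyclin D1) had the opposite lean in the adult, with the highest level in LP/alveolar cells. LP/alveolar cells held 229, 113 and 451 CPM in FVB/NJ replicates 1 to 3, 589 CPM in C57BL/6 and 551 CPM in SWISS, against 156, 95.1, 154, 235 and 318 CPM in ML cells and 144, 19.8, 59.5, 42.3 and 206 CPM in basal cells. Within each of the 5 libraries the order was LP/alveolar, ML, basal, although the ranges of the classes overlapped across libraries. Basal cells were 4.97-fold lower than LP/alveolar cells (log2 difference -2.31 ± 0.37, adjusted p = 0.000176) and 2.39-fold lower than ML cells (-1.26 ± 0.35, adjusted p = 0.00764), and LP/alveolar cells were 2.08-fold higher than ML cells (1.05 ± 0.35, adjusted p = 0.0248). The last difference was not called in the 3 FVB/NJ libraries alone (0.95, adjusted p = 0.0794) or without FVB/NJ replicate 3 (0.89, adjusted p = 0.102).

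The called differences of Ccnd3, Cdkn1a and Cdkn2c between adult classes were at most 1.87-fold. Ccnd3 was 1.41-fold lower in basal than in ML cells (log2 difference -0.49 ± 0.15, adjusted p = 0.0105) and 1.35-fold lower in LP/alveolar than in ML cells (-0.44 ± 0.15, adjusted p = 0.0291), and neither call held without the C57BL/6 library (adjusted p = 0.106 and 0.119), nor the latter without FVB/NJ replicate 1 (0.0628) or 3 (0.116). Cdkn1a was 1.75-fold higher in LP/alveolar than in ML cells (0.80 ± 0.27, adjusted p = 0.0299), a call lost without FVB/NJ replicate 2 (0.54, adjusted p = 0.104) and also without any other of the adult libraries but SWISS. Cdkn2c was 1.87-fold higher in LP/alveolar than in basal cells (basal minus LP/alveolar -0.90 ± 0.28, adjusted p = 0.0161; -0.68 and 0.0604 without FVB/NJ replicate 2) and 1.76-fold higher than in ML cells (0.82 ± 0.27, adjusted p = 0.0265). The former was also lost without the C57BL/6 library (0.0602) or FVB/NJ replicate 3 (0.0532), and the latter without FVB/NJ replicate 1 (0.122) or 3 (0.0662). Cdkn1b showed differences of 0.02 to 0.09 between classes, none called.

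Cdkn2a was sparse, and its UMIs lay in ML and basal cells. In the ML cells of the adult libraries 117, 16 and 13 UMIs were counted in FVB/NJ replicates 1 to 3, 88 in C57BL/6 and 852 in SWISS, which amount to 4.56, 4.10, 0.833, 2.04 and 22.3 CPM. Basal cells held 34, 3, 2, 0 and 184 UMIs, and LP/alveolar cells 0, 0, 0, 1 and 7. Cdkn2a was 3.75-fold higher in ML than in basal cells (basal minus ML -1.91 ± 0.40, adjusted p = 0.00112), and LP/alveolar cells were lower than basal (adjusted p = 0.000223) and ML cells (adjusted p = 9.62e-06). No fold is given against LP/alveolar cells, where 3 of the 5 libraries had no UMI. The calls against that class rest on counts near the floor, so their p-values add little to the counts themselves. The 2 highest ML levels of any library were 22.3 CPM in SWISS and 19.9 CPM in the TEB library, and the 3 libraries before puberty (E18.5, postnatal day 5 and pre-puberty) held no Cdkn2a UMI in basal cells. At a depth of 2000 UMIs no more than 4.0% of the ML cells of any library had a Cdkn2a UMI.

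Of the 7 genes, 4 were called between basal and LP/alveolar cells (2 higher and 2 lower in basal cells), 4 between basal and ML cells (1 higher and 3 lower) and 5 between LP/alveolar and ML cells (3 higher and 2 lower in LP/alveolar cells). The first and last counts include Cdkn2a, whose LP/alveolar counts were near the floor. Among all 13917 genes tested the called shares were 48.9%, 61.9% and 43.8%, so the members' count was near the share of genes at large in the first 2 comparisons and above it in the last, where 3 of the 5 calls were lost without FVB/NJ replicate 1 and 4 without replicate 3. In a list of 20 other G1/S genes, 8 were higher and 3 lower in basal than in LP/alveolar cells, among them the inhibitor Cdkn1c (log2 difference 2.85), the pocket protein gene Rb1 (-2.82), the kinase gene Cdk6 (-2.24) and the cyclin gene Ccne1 (2.04). Between basal and ML cells 11 were higher and 2 lower, with Cdkn1c (3.23), Ccne1 (2.19) and Myc (2.05) higher and E2f2 (-2.08) lower in basal cells, and between LP/alveolar and ML cells 7 were higher and 2 lower, with Cdk6 (3.01) and Rb1 (2.52) higher in LP/alveolar cells. CDK6 is, with CDK4, a kinase partner of the D-type cyclins, and RB1 is a substrate of the complexes. LP/alveolar cells were also the class with the highest adult Ccnd1 level, and a link between these levels was not tested. Of 12 p53 targets, 2 were higher and 8 lower in LP/alveolar than in ML cells, among the latter Zmat3 (-2.36) and Gadd45a (-1.70).

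The stages of pregnancy were compared in the 9 FVB/NJ libraries with replicates, in 1 fit per class. Of the 7 genes, 7 passed the filter on low counts in basal, 6 in LP/alveolar (all but Cdkn2a) and 7 in ML cells. Cdkn1a was the only member called, in LP/alveolar and ML cells, between virgin adults and pregnancy day 12.5. In LP/alveolar cells its level was 341, 561 and 323 CPM in the 3 virgin libraries and 52.3 and 50.1 CPM at day 12.5. The groups did not overlap, and at day 18.5 (69.9 and 44.1 CPM) and lactation day 10 (56.6 and 47.9 CPM) the level was within the same low range when all UMIs were counted. With milk transcripts left out of the total, the mean was 419 CPM in virgin libraries, 60.9 CPM at day 12.5, 89.2 CPM at day 18.5 and 236 CPM at lactation. Lactation thus lay in the low range of day 12.5 only with milk transcripts counted, while its mean without them was still below the virgin mean. The share of LP/alveolar cells with a Cdkn1a UMI was 42.4%, 54.8% and 38.3% in the virgin libraries and 9.28% and 8.88% at day 12.5. The change from virgin to day 12.5 was 6.44-fold downward (log2 change -2.69 ± 0.39, adjusted p = 0.00484), with 1 of 6 members called against 11.3% of all genes tested. It was -2.50 ± 0.28 without FVB/NJ replicate 2, and the adjusted p rose to 0.107 when either day-12.5 library was left out. Mature luminal and fibroblast markers in the LP/alveolar class were lower at day 12.5 as well. The 8 mature luminal markers summed to 149.99 to 317 CPM in the virgin libraries and to 46.0 and 47.2 CPM at day 12.5, with all 8 seen in each library. The 6 fibroblast markers summed to 9.999 to 36.0 CPM and to 7.05 and 8.27 CPM, with 3 to 6 and 6 seen. Basal markers overlapped, at 286 to 1179 CPM in virgin and 868 and 1115 CPM in day-12.5 libraries. The markers of the class itself were lower too. The luminal list went from 10363 to 34671 CPM to 5164 and 5174 CPM, and the LP/alveolar list from 989 to 3962 CPM to 767 and 785 CPM. The part of these lists in the Cdkn1a level was not tested.

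In ML cells Cdkn1a stood at 217, 160.3 and 197 CPM in virgin libraries and at 51.7 and 44.6 CPM at day 12.5, again with no overlap. The change was 4.08-fold downward (log2 change -2.03 ± 0.52, adjusted p = 0.0433), with 1 of 7 members called against 6.16% of all genes, and without FVB/NJ replicate 2 it was -2.26 ± 0.45 (adjusted p = 0.0123). Fibroblast markers summed to 30.4 to 1021 CPM in ML cells of the virgin libraries and to 8.57 and 11.7 CPM at day 12.5, with 4 to 6 and 2 to 4 of 6 markers seen. Erythroid markers in ML cells summed to 25.6 to 68.1 CPM in the virgin libraries and to 229 and 234 CPM at day 12.5, with 3 to 4 and 2 to 3 of 5 markers seen. The part of either list in the ML levels of Cdkn1a and Ccnd1 was not tested. The ML call rests on 201 and 239 cells at day 12.5 and was lost under 9 of the alternative settings. In basal cells Cdkn1a went from 287, 599 and 223 CPM to 190.4 and 169 CPM (-0.87 ± 0.44, adjusted p = 0.411), and none of the 7 genes was called, against 0.559% of all genes. The difference between the LP/alveolar and basal changes was itself tested in a fit with library as a block, chosen after seeing the data: it was -1.94 ± 0.21 (adjusted p = 0.00105). The same test for ML minus basal did not call Cdkn1a, although it did without FVB/NJ replicate 2. The other p53 targets gave 3 lower and 0 higher of 12 in LP/alveolar cells (Trp53inp1 -2.58, Gadd45a -1.80, Btg2 -1.54), 2 lower in ML cells (Phlda3 -2.91, Plk2 -2.43) and none in basal cells, and the median change over the list in LP/alveolar cells was -0.46, against 0.02 over all genes tested.

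**Figure D2:**
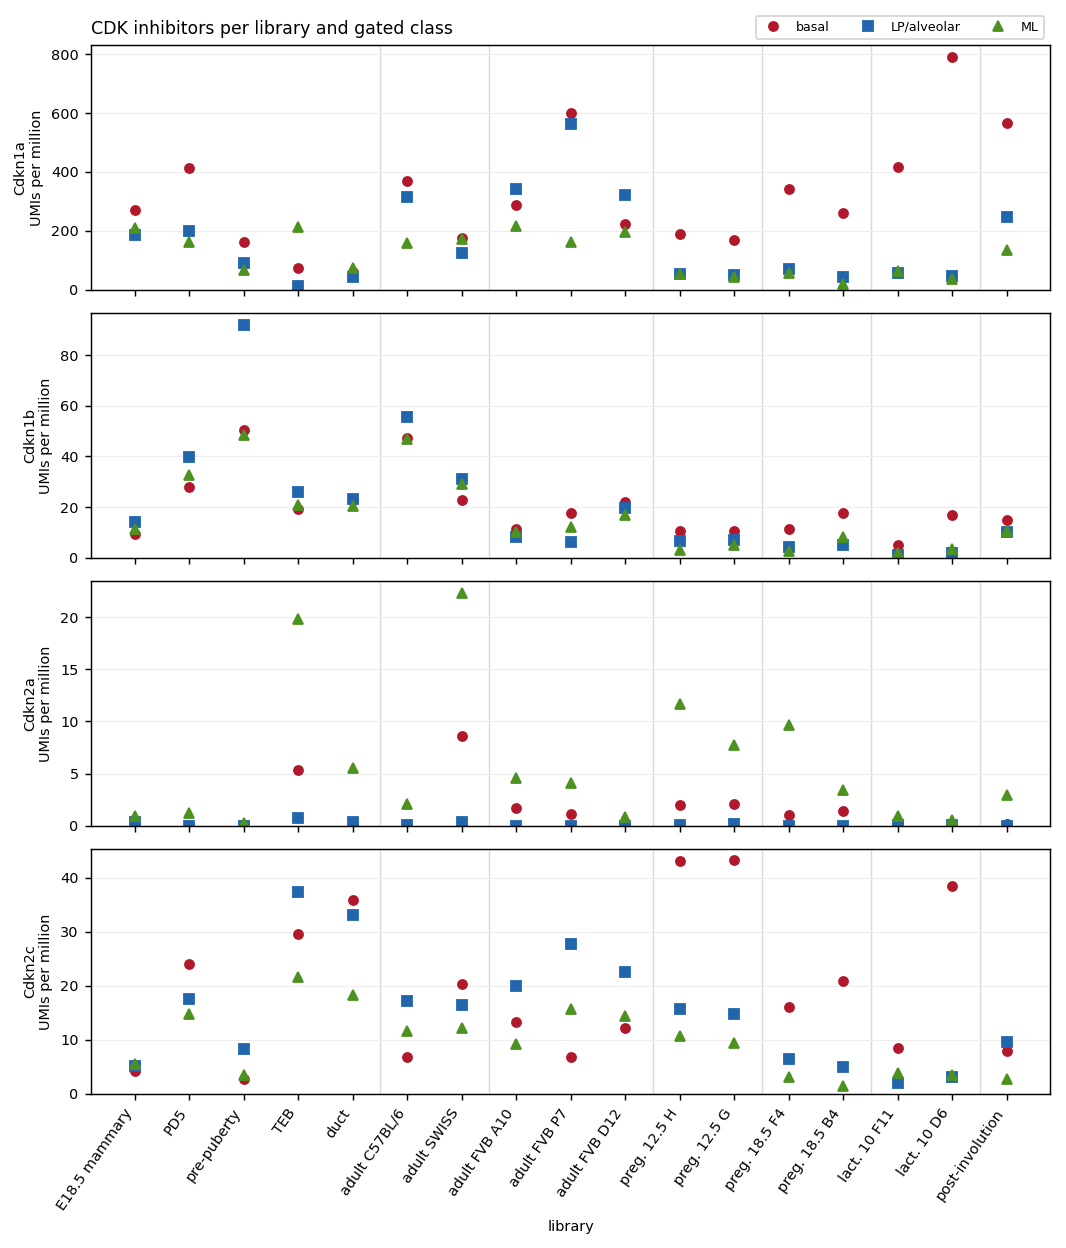
Cdkn1a, Cdkn1b, Cdkn2a and Cdkn2c in CPM for basal, LP/alveolar and ML cells of each of the 17 mammary libraries, on linear axes from 0, with points for single libraries and no error bars. Luminal Cdkn1a is at 160.3 CPM or more in the 3 FVB/NJ virgin libraries and at 69.9 CPM or less in the 6 libraries of pregnancy and lactation, milk transcripts being counted in the total.

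In the single post-involution library Cdkn1a stood at 248 CPM in LP/alveolar and 135 CPM in ML cells. With milk transcripts left out these levels were 282 and 136 CPM, against means of 236 and 126 CPM at lactation. Among younger libraries its LP/alveolar level was lowest in the TEB library (11.7 CPM), where ML cells held 214 CPM. It was highest at postnatal day 5 (200 CPM), which overlapped E18.5 (187 CPM). LP/alveolar cells of the C57BL/6 adult held 315 CPM. In basal cells the lowest levels were those of the ducts (61.6 CPM) and the TEB (73.9 CPM), and the highest was 792 CPM in lactation replicate 2. Erythroid marker transcripts summed to 345 and 823 CPM in basal cells of the 2 lactation libraries, against at most 3.89 CPM in basal cells of the virgin FVB/NJ libraries. Endothelial markers summed to 38.9 and 65.2 CPM at lactation against 7.86 to 22.4 CPM, and immune markers to 26.0 and 42.8 CPM against 1.71 to 5.23 CPM. The part of these lists in the basal levels was not tested.

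Between virgin and day 12.5 the Ccnd1 values went up in basal cells and down in ML cells, and the difference between these changes passed the test although neither change did. In basal cells it stood at 144, 19.8 and 59.5 CPM in virgin libraries and at 243 and 266 CPM at day 12.5, and the share of basal cells with a UMI was 16.8%, 3.68% and 7.64% against 34.4% and 37.0%. The groups did not overlap, but the change of 1.80 ± 0.70 on the log2 scale was not called (adjusted p = 0.269; 1.34 and 0.203 without FVB/NJ replicate 2). It was called without FVB/NJ replicate 1 (2.81, adjusted p = 0.0471) and with no low-count filter (1.81, adjusted p = 0.00152). LP/alveolar markers in basal cells summed to 39.5 to 114 CPM in virgin libraries and to 120 and 134 CPM at day 12.5. Mature luminal markers there summed to 46.4 to 297 CPM and to 27.3 and 30.5 CPM. The part of these lists in the basal Ccnd1 level was not tested. In ML cells the Ccnd1 level went from 156, 95.1 and 154 CPM to 61.4 and 53.1 CPM (-1.29 ± 0.47, adjusted p = 0.139, and called without FVB/NJ replicate 2 at -1.58 and 0.0173). In LP/alveolar cells it went from 229, 113 and 451 CPM to 156 and 151 CPM (-0.50 ± 0.54, adjusted p = 0.573), with overlap. In the fits with library as a block LP/alveolar minus basal was -2.64 ± 0.53 (adjusted p = 0.0163; -2.45 and 0.0547 without FVB/NJ replicate 2), and ML minus basal was -3.58 ± 0.51 (adjusted p = 0.00315; -3.10 and 0.00329). The first was also lost without either day-12.5 library (adjusted p = 0.133 and 0.168) and the second without day-12.5 replicate 2 (0.0756).

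At day 18.5 the Ccnd1 values were lower than at day 12.5 in each of the 3 classes. Basal cells then held 109 and 58.5 CPM, LP/alveolar cells 29.5 and 23.3 CPM and ML cells 17.3 and 15.96 CPM, and at lactation day 10 the values were 13.4 and 40.6 CPM in basal, 3.87 and 7.12 CPM in LP/alveolar and 11.3 and 11.1 CPM in ML cells. No LP/alveolar value of a later stage reached one of an earlier stage from day 12.5 onward. The mean level in LP/alveolar cells was 264 ± 171 CPM (SD, n = 3) in virgin libraries, 154 ± 3.18 CPM (n = 2) at day 12.5, 26.4 ± 4.38 CPM (n = 2) at day 18.5 and 5.50 ± 2.30 CPM (n = 2) at lactation. Without milk transcripts in the total the last 2 means were 41.5 ± 5.72 and 25.4 ± 12.6 CPM, still without overlap, while in ML cells the means were 19.2 ± 1.88 CPM at day 18.5 and 31.9 ± 16.3 CPM at lactation. In basal cells the lactation mean was 37.6 CPM without milk transcripts and 27.0 CPM with them. The change from day 12.5 to 18.5 in LP/alveolar cells was -2.06 ± 0.60 (adjusted p = 0.14) and was called without FVB/NJ replicate 2 (adjusted p = 0.0265), a virgin library that enters only through the shared spread. Their change from day 18.5 to lactation was -0.52 ± 0.59 (adjusted p = 0.758) with TMM scaling and -2.26 ± 0.61 (adjusted p = 0.00807) without it. Without TMM the median change of all genes was -1.72, against which the latter value is to be read. Milk transcripts made up 35.1% and 37.6% of LP/alveolar UMIs at day 18.5 and 76.5% and 79.2% at lactation, and their part in the difference between scalings was not tested. For ML cells the same step gave Ccnd1 1.05 ± 0.54 (adjusted p = 0.711) under TMM, although the CPM were lower. Cdkn1a in LP/alveolar cells shows the same dependence, with 1.59 ± 0.39 (adjusted p = 0.0676) under TMM and -0.13 ± 0.43 without it.

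Ccnd2 in basal cells was 326, 87.5 and 266 CPM in virgin libraries, 423 and 471 CPM at day 12.5, 275 and 212 CPM at day 18.5, and 61.8 and 164 CPM at lactation. Milk transcripts made up 50.1% and 16.3% of basal UMIs in the lactation libraries. Without them the lactation mean was 160 CPM, against 113 CPM with them. Day 12.5 lay above all other stages of FVB/NJ, but its change from virgin (1.04 ± 0.55, adjusted p = 0.433; 0.63 and 0.322 without FVB/NJ replicate 2) and to day 18.5 (-0.95 ± 0.61, adjusted p = 0.772) was not called. Post-involution basal cells held 43.5 CPM, the lowest basal value of the 17 libraries. The basal-over-luminal split of Ccnd2 was present at each of these stages, with luminal levels of at most 12.1 CPM in the 9 libraries. The test of the difference in change did not call Ccnd2 between any classes.

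Cdkn2c in basal cells went from 13.3, 6.73 and 12.2 CPM in virgin libraries to 43.1 and 43.2 CPM at day 12.5, with no overlap, and the change was just short of a call (2.05 ± 0.43, adjusted p = 0.0592). It was called without FVB/NJ replicate 1 (2.31, adjusted p = 0.0379) or 2 (1.80, 0.0468), with DESeq2 (2.04, 0.00124), with no low-count filter (2.06, 3.9e-05), with the stricter gate (2.22, 0.0384) and with the second gate markers (2.03, 0.0465), and without either day-12.5 library the adjusted p was 0.513 and 0.571. In LP/alveolar cells it was 19.998, 27.7 and 22.6 CPM in virgin and 15.7 and 14.8 CPM in day-12.5 libraries (-0.32 ± 0.29, adjusted p = 0.506). The change differed between the classes, by -2.41 ± 0.33 for LP/alveolar minus basal (adjusted p = 0.00317) and by -2.51 ± 0.49 for ML minus basal (adjusted p = 0.0171), each still called without FVB/NJ replicate 2 (-2.17 and -2.15) and each lost when a day-12.5 library was left out. In cells without Mki67 or Top2a UMIs the basal change was 1.37 ± 0.38 (adjusted p = 0.118). Of the basal cells, 9.38%, 0.48% and 5.33% had such UMIs in the virgin libraries and 19% and 19.2% at day 12.5. These shares were counted without thinning, at median depths of 3913, 1907 and 4468 UMIs in virgin and 3237 and 3389 UMIs in day-12.5 libraries. LP/alveolar and mature luminal markers in basal cells also moved at this step, as given for Ccnd1. Their part in the basal Cdkn2c level was not tested.

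Counted over the set, the differences between classes in the change from virgin to day 12.5 called 3 of 7 genes for LP/alveolar minus basal (6.16% of all genes), 2 of 7 for ML minus basal (4.4%) and 0 of 7 for ML minus LP/alveolar (11.7%; Ccnd1 -0.82 ± 0.29, adjusted p = 0.0799). These 3 comparisons share their libraries. No member was called by edgeR from day 12.5 to 18.5 in basal (0% of all genes, with 1154 of 13409 at an unadjusted p under 0.05 and 199 called by DESeq2), LP/alveolar (0.525%) or ML cells (0.0595%), nor from day 18.5 to lactation (1.04%, 2.47% and 0.189%). The corresponding differences between classes called no member either, with 0.28%, 0.0318% and 1.25% of all genes called for the earlier step and 1.05%, 0.0715% and 0.781% for the later one, in the order LP/alveolar minus basal, ML minus basal and ML minus LP/alveolar. Ccnd3 and Cdkn1b were called in no stage comparison. Ccnd3 in basal cells was 32.4 to 80.0 CPM in virgin and 47.7 to 51.4 CPM in day-12.5 libraries, and Cdkn1b in ML cells went from 10.1, 12.1 and 16.9 CPM to 2.93 and 5.14 CPM (-1.68 ± 0.70, adjusted p = 0.198). Cdkn2a in ML cells went from 4.56, 4.10 and 0.833 CPM to 11.7 and 7.71 CPM on 12 and 9 UMIs (1.59 ± 0.75, adjusted p = 0.247) and in basal cells from 1.71, 1.12 and 0.169 CPM to 1.964 and 2.08 CPM (1.05 ± 0.76, adjusted p = 0.594), without overlap in either class and without a call.

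**Figure D3:**
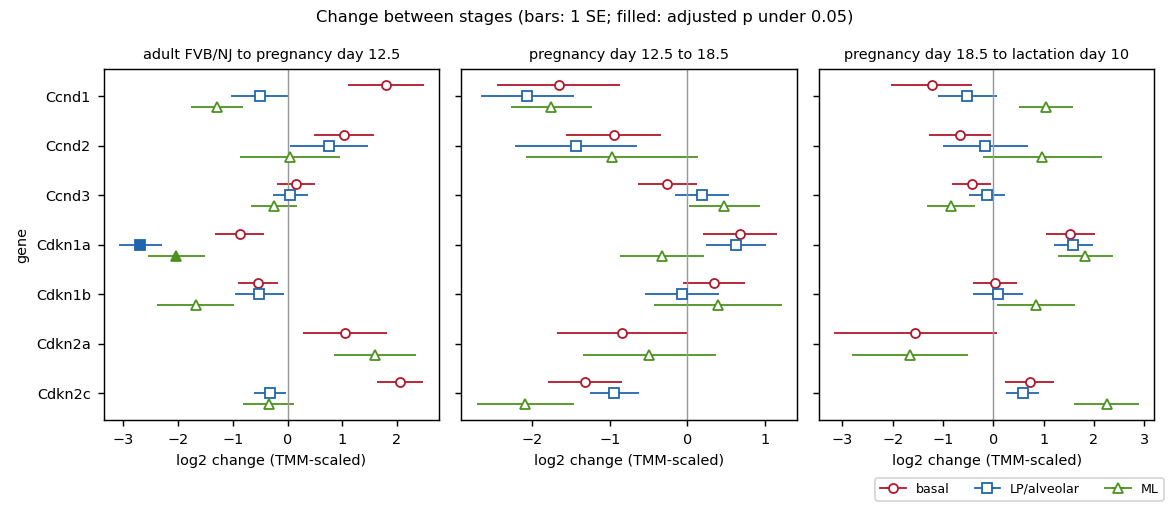
Log2 change of each member in edgeR between successive FVB/NJ stages, for basal, LP/alveolar and ML cells, with bars of 1 standard error. Filled points passed an adjusted p of 0.05: these are Cdkn1a in LP/alveolar (-2.69) and ML cells (-2.03) from virgin to pregnancy day 12.5.

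The share of cells with a UMI gave a second reading of the stages. Milk transcripts were counted in the 2000 UMIs, so shares at lactation rest on fewer UMIs of other genes. Milk made up 76.5% and 79.2% of LP/alveolar UMIs and 44.6% and 74.4% of ML UMIs at lactation. The p-values below do not allow for this. Over all 7560 assignments of the 9 libraries to the 4 stages, the thinned shares were tested by exact permutation, two-sided, which gave Cdkn1a p = 0.00317 in ML and 0.00714 in LP/alveolar cells and Cdkn2c p = 0.00635 in LP/alveolar cells, each with an adjusted p of 0.05 over 21 tests, which does not pass a threshold of under 0.05. By the same exact permutation test Ccnd1 gave p = 0.0135 in ML cells (adjusted p = 0.0708), 0.0333 in basal and 0.0389 in LP/alveolar cells (both adjusted 0.136), and Ccnd2 gave 0.0532 in basal cells (adjusted p = 0.156). The smallest p this permutation design allows is 0.000794. Of the other G1/S genes, 3 of 19 were higher and none lower at day 12.5 in LP/alveolar cells (Cdc25a 1.57, Cks1b 1.35, Ccne1 1.21; median of the list 0.65), 1 of 16 in ML cells (Cks1b 1.92) and none of 19 in basal cells, against 11.3%, 6.16% and 0.559% of all genes called in either direction.

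Across the 12 groups of all stages, LP/alveolar Ccnd1 ranged from 799 CPM before puberty to 5.50 CPM at lactation (25.4 CPM without milk transcripts). The order of levels was pre-puberty, postnatal day 5 (746 CPM), TEB (601), C57BL/6 adult (589), SWISS adult (551), E18.5 (494), duct (468), FVB/NJ adult, post-involution (154), day 12.5, day 18.5 and lactation. Neighbours overlapped, by counting interval for single libraries and by range for replicated groups, for pre-puberty and day 5, TEB and C57BL/6, E18.5 and duct, FVB/NJ adult and post-involution, and post-involution and day 12.5. In basal cells Ccnd1 was highest at day 12.5, followed by SWISS (206 CPM), TEB (182) and postnatal day 5 (175), and 5 of its 11 neighbouring pairs stood apart, against 6 in LP/alveolar and 9 in ML cells. For Ccnd2 in basal cells 8 of 11 neighbouring pairs stood apart. Single adult libraries lay far apart within and between strains. Basal Ccnd1 was 42.3 CPM in C57BL/6 and 206 CPM in SWISS, and it ran from 19.8 to 144 CPM over the 3 FVB/NJ replicates. In C57BL/6 and SWISS 3.07% and 32.2% of basal cells had a Mki67 or Top2a UMI, counted without thinning at median depths of 3530.5 and 6004 UMIs.

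Cdkn1b was highest in the pre-puberty library, at 92.1 CPM in LP/alveolar, 50.5 CPM in basal and 48.4 CPM in ML cells, and second in C57BL/6 adults with 55.6, 47.4 and 46.9 CPM. The counting intervals of these 2 libraries overlapped in basal and ML cells and stood apart in LP/alveolar cells. Postnatal day 5 (39.9, 27.8 and 32.7 CPM) and the SWISS adult (31.0, 22.8 and 28.9 CPM) came next. All of these belong to the libraries set apart by their shared barcodes, and the part of that split in the order was not tested. Basal cells at E18.5 held the lowest level by group mean, 9.46 CPM, which overlapped day 12.5. A single lactation library lay lower, at 4.96 CPM with milk transcripts counted. Erythroid markers in the pre-puberty library summed to 3726, 2341 and 2062 CPM in LP/alveolar, basal and ML cells, the highest of the 17 libraries. In its cells without Mki67 or Top2a UMIs they summed to 79.6, 621 and 849 CPM, and Cdkn1b stood at 90.1, 50.8 and 46.4 CPM. At lactation the LP/alveolar level of Cdkn1b was 1.05 and 1.79 CPM, or 4.46 and 8.60 CPM without milk transcripts. Ccnd3 was highest at the 2 earliest stages in basal cells (114 CPM at E18.5 and 119 CPM at postnatal day 5), where their intervals overlapped, and its lowest mean was that of lactation (16.03 and 28.3 CPM), which overlapped the C57BL/6 adult (28.0 CPM). Without milk transcripts the lactation mean was 33.0 CPM, which is not the lowest.

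Cells that carry a UMI of the proliferation genes Mki67 or Top2a were compared with the remaining cells of the same class and library. Cdkn2c, an inhibitor of CDK4 and CDK6, was the member most raised in them. In basal cells it was 46.6 against 7.04 CPM in adult FVB/NJ replicate 1, 43.3 against 9.53 CPM in replicate 3, 116 and 114 against 17.9 and 18.3 CPM at day 12.5, and 107 and 88.2 against 9.82 and 11.6 CPM at day 18.5. It was higher in 14 of 15 libraries, with the post-involution library as the exception (4.94 against 7.99 CPM), and the fold was 6.21 (log2 difference 2.63 ± 0.15, adjusted p = 2.05e-13). The difference was 2.31-fold in LP/alveolar cells (1.21 ± 0.11, adjusted p = 3.34e-09, 15 of 16 libraries) and 2.24-fold in ML cells (1.16 ± 0.17, adjusted p = 8.62e-06, 12 of 13). In the 9 FVB/NJ libraries only, the basal (2.64, adjusted p = 2.09e-15) and LP/alveolar (1.15, 9.82e-07) differences were called and the ML difference was not (0.80, adjusted p = 0.0602). Cells with Mki67 or Top2a of the pre-puberty library, which is not among the 9, carried erythroid markers at 35367, 21289 and 10738 CPM in LP/alveolar, basal and ML cells, against at most 116 CPM in any other library.

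The cells with Mki67 or Top2a were deeper in every library tested, with median UMIs of 2075 to 29861 against 1772 to 21772 in basal cells. At the fixed depth of 2000 UMIs the share of basal cells with a Cdkn2c UMI was still higher in 13 of 14 libraries, with a median of 9.40% against 1.35%, in 14 of 16 LP/alveolar (4.20% against 1.82%) and in 10 of 13 ML comparisons (3.36% against 1.41%). The virgin FVB/NJ replicate 2 had under 20 cells with Mki67 or Top2a in each class and did not enter.

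Cyclin D1 differed by far less between these cells. Ccnd1 was higher with Mki67 or Top2a by 1.31-fold in basal (0.39 ± 0.11, adjusted p = 0.00791, 12 of 15 libraries), 1.22-fold in LP/alveolar (0.28 ± 0.07, adjusted p = 0.00325, 16 of 16) and 1.23-fold in ML cells (0.30 ± 0.07, adjusted p = 0.0021, 13 of 13). In the 9 FVB/NJ libraries only, the basal (0.29, adjusted p = 0.11) and LP/alveolar (0.30, 0.0599) differences were not called. Ccnd2 in basal cells gave a difference of -0.01 ± 0.07, with an interval of -0.16 to 0.13. Ccnd3 was higher in basal (0.24 ± 0.07, adjusted p = 0.0236) and LP/alveolar cells (0.19 ± 0.07, adjusted p = 0.0362), and the basal call was lost under 6 of the alternative settings and the LP/alveolar call under 4, among them the 9 FVB/NJ libraries only (0.20, adjusted p = 0.108).

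Among the inhibitors, Cdkn1a was lower with Mki67 or Top2a in basal (-0.43 ± 0.08, adjusted p = 9.05e-05, lower in 13 of 15 libraries) and LP/alveolar cells (-0.34 ± 0.08, adjusted p = 0.00125, 11 of 16), while ML cells gave -0.05 ± 0.07 (adjusted p = 0.671), with a higher level in 10 of 13 libraries. The LP/alveolar difference was not called in the 9 FVB/NJ libraries only (-0.26, adjusted p = 0.119). By thinned share Cdkn1a was lower in 8 of 14 basal and 10 of 16 LP/alveolar comparisons and higher in 9 of 13 ML comparisons. Cdkn2a was higher in basal (1.80 ± 0.30, adjusted p = 5.72e-05) and ML cells (0.70 ± 0.18, adjusted p = 0.00449), on counts that were 0 in the median basal share. By library it was higher in 8 of 15 and lower in 3 for basal cells, and higher in 8 of 13 and lower in 5 for ML cells. The ML call was lost in the 9 FVB/NJ libraries only (0.73, adjusted p = 0.427). Cdkn1b was higher in basal cells (0.40 ± 0.08, adjusted p = 0.000336).

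In all, 6 of 7 members were called in basal cells (33.8% of all genes), 4 of 6 in LP/alveolar cells (34.4%) and 3 of 7 in ML cells (31.3%). Of the other G1/S genes 14 were higher in each class, led by Ccne2 (2.30 for basal, 2.11 for LP/alveolar and 2.90 for ML cells), and 2, 3 and 1 were lower. Cdkn2d, which codes for the p19Ink4d inhibitor of the same family as Cdkn2c, was higher in LP/alveolar cells too (1.82). Of the p53 targets none was higher, and 6, 6 and 4 of 12 were lower.

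**Figure D4:**
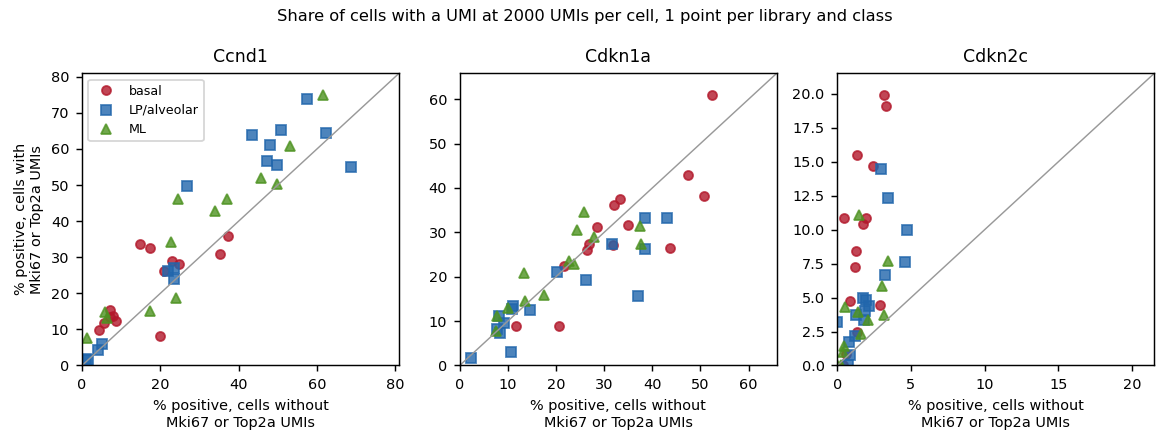
Percent of cells, thinned to 2000 UMIs, with a UMI of Ccnd1, Cdkn1a or Cdkn2c among cells with (vertical) against without (horizontal) Mki67 or Top2a UMIs, 1 point per library and class. The line marks equal shares, and 13 of the 14 basal points of Cdkn2c lie above it.

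The genes most like each member were taken over 51 library-by-class sums and 7555 genes as the highest Pearson correlations of log2(CPM + 1), a description without a test since sums of 1 library share cells' handling and depth. Ccnd2 ran with Bmp7 (r = 0.949), Ppic (0.943) and Col18a1 (0.940), and Ccnd1 with the replication gene Mcm6 (0.878), Rnaseh2b (0.866) and the methyltransferase gene Dnmt1 (0.861). Cdkn1a ran with Sfn (0.789), Sphk1 (0.761) and Sde2 (0.753), and Cdkn2a with Zmat3 (0.739), C1qtnf6 (0.721) and Guk1 (0.719). Ccnd3 ran with Bnip3l (0.891), Nabp2 (0.890) and Zfp64 (0.882), Cdkn1b with Exoc3 (0.911), Rad50 (0.908) and Npc1 (0.904), and Cdkn2c with Mrpl3 (0.720), Rpia (0.716) and Nsmce3 (0.710).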

How the data were processed

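The 18 libraries were aligned and counted by the authors with Cell Ranger (3.0.2 per the file headers, 3.1.0 for postnatal day 5 and pre-puberty; build mm10 per the submitters' notes), and the deposited values are raw UMI counts per gene and barcode. The study's own limits on genes, UMIs and mitochondrial share were applied to cells, among them a minimum of 500 genes. No doublet caller was run. Cells with basal and luminal markers together (2854) or with stromal and epithelial markers (1729) were set aside, as were 4063 cells with fewer than 5 gate UMIs. Lactation replicates 1 and 2 held 1448 and 1643 of the latter, or 27.4% and 24.1% of their cells. Milk transcripts made up at least 50% of the UMIs in 1151 and 997 of these cells, so the lactation LP/alveolar levels leave them out. A basal cell had a basal share of at least 70% of its gate UMIs and a luminal cell under 50%, and luminal cells were ML with at least 2 ML marker UMIs, more than of LP markers, and LP/alveolar with LP marker UMIs in equal or larger number (2197 fitted neither).

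Counts were summed per library and class with at least 20 cells, and tested in edgeR 4.0.16 (quasi-likelihood test, TMM, filterByExpr, R 4.3.3), with Benjamini-Hochberg adjustment over all genes tested and calls at an adjusted p under 0.05. Stage fits used the 9 FVB/NJ libraries of replicated stages without a covariate. Class and cycling fits had library as a block, since the classes of a library come from the same animals. Shares used hypergeometric thinning to 2000 UMIs in numpy 2.4.6. Intervals of levels and shares are exact at 95% and cover counting error only. The interval of a log2 difference is the estimate ± 1.96 SE of the fit. The scripts were tested on simulated data. Alternatives were DESeq2 1.42.0, no TMM, no low-count filter, other gates, other thinning depths and leaving out libraries. The 7 genes and the G1/S and p53 lists were chosen with earlier results of these data known. The text names the 7 genes, at most 4 called genes of each list in a comparison, taken by size of change, and the 3 genes most correlated with each member. Library depth ran from 9920346 to 93234616 UMIs, so low levels such as those of Cdkn2a are less precise in the shallow libraries.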

Additional observations from a re-analysis of the deposited data

Results flagged for a closer look

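The change from virgin to pregnancy day 12.5 in FVB/NJ differed between classes for 3 genes, by a test of the difference itself. For Cdkn2c the difference on the log2 scale was -2.41 for LP/alveolar minus basal cells and -2.51 for ML minus basal cells, and for Ccnd1 it was -2.64 and -3.58. For Cdkn1a it was -1.94 for LP/alveolar minus basal cells. These fits were chosen after seeing the data.

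The embryonic skin library entered no comparison, and its 8448 fibroblast-like cells with 2000 or more UMIs carried each of the 7 genes. A UMI of Ccnd1 was found in 22.1% of them, of Ccnd2 in 64.4%, of Ccnd3 in 37.3%, of Cdkn1a in 33.3%, of Cdkn1b in 5.24%, of Cdkn2a in 0.391% and of Cdkn2c in 8.31%. No control cell type that should lack these genes was available in that library.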

How the results depend on the processing

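The 28 called differences of single genes were recomputed under 359 alternatives in all, of which 300 left the call, 59 ended it and 0 reversed the direction, and 7 of the 28 gave a value and kept the call under each of their alternatives. Cdkn2a in the basal comparison of cells with and without Mki67 or Top2a gave no value with no replicate block, where it did not pass the filter on low counts, and was called under its other alternatives. The number of members called from virgin to day 12.5 in basal cells was 0 and became 1 with DESeq2, 2 with no low-count filter, 1 with the stricter gate, 1 with the second gate markers and 0 to 2 when a library was left out. The count from day 12.5 to 18.5 in basal cells became 1 with no low-count filter, and from day 18.5 to lactation 1 with DESeq2 and 0 to 1 with a library left out. In LP/alveolar cells the count of 1 from virgin to day 12.5 was 0 to 1 with a library left out. From day 12.5 to 18.5 it was 1 with DESeq2, 2 with no low-count filter and 0 to 1 with a library left out, and from day 18.5 to lactation 1 with DESeq2, 4 without TMM (Ccnd1, Ccnd3, Cdkn1b and Cdkn2c) and 0 to 1 with a library left out. In ML cells the count of 1 from virgin to day 12.5 was 0 without TMM, with at least 1000 genes per cell and with the second gate markers, and 0 to 2 with a library left out. The causes were not tested.

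No paired analysis was possible because the replicate numbers of the stages only name libraries, with no statement that equal numbers share animals or days. Class and cycling fits had library as a block. With no replicate block 1 member was called in place of 4 between basal and ML cells, 1 in place of 5 between LP/alveolar and ML cells, and 1 in place of 6, 4 and 3 between cells with and without Mki67 or Top2a in basal, LP/alveolar and ML cells. The count between LP/alveolar and ML cells was 3 in FVB/NJ adults only and 1 to 5 with a library left out. With the 9 FVB/NJ libraries only, the cycling counts were 2 in LP/alveolar cells, with Ccnd1, Ccnd3 and Cdkn1a lost and Cdkn1b gained, and 1 in ML cells, with Cdkn2a and Cdkn2c lost. The differences between classes, chosen after seeing the data, called 1 to 3 members for LP/alveolar minus basal and 0 to 3 for ML minus basal with a library left out. For ML minus LP/alveolar the count of 0 was 1 in cells without Mki67 or Top2a and 0 to 1 with a library left out for the step to day 12.5, and 1 with the stricter gate and 0 to 1 with a library left out for the step to lactation. The permutation test of shares called 0 of 21 and 3 at a thinning depth of 1000, 3 at 3000, 3 with the second gate markers and 2 without cycling cells. Adding milk-dominated cells without a class to LP/alveolar cells, also chosen after seeing the data, changed no count.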

Other observations

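Fibroblast-like cells that came through the sort carried these genes at levels that differed widely between libraries. Ccnd2 was found in 61.2% of 676 such cells of the E18.5 mammary library, in 2.97% of 337 before puberty, and in 22.2%, 22.0% and 23.7% in adult FVB/NJ replicate 1, C57BL/6 and SWISS (144, 560 and 393 cells), all thinned to 2000 UMIs. Ccnd1 was found in 30.6% at E18.5, 49.3% before puberty and 2.08%, 4.29% and 2.80% in the same adults. Cdkn1a, at 21.7% at E18.5 and 44.5% before puberty, was found in 63.2%, 71.4% and 63.9% in the adults, and Cdkn2c in 24.9% before puberty against 2.78%, 2.32% and 1.27%. The postnatal day 5 library, with 345 such cells, is not given here. These are single libraries with no test.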
